A study of Mus musculus with 8 samples.

Results

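T and NK cell genes were measured in malignant peripheral nerve sheath tumors of mice (MPNST, a sarcoma that arises from Schwann cells and their precursors) that had lost Polycomb repressive complex 2 (PRC2) or kept it. The 32 genes are the T cell receptor chains, coreceptors, signaling proteins, costimulatory and inhibitory receptors, and the cytotoxic effectors and transcription factors of T and natural killer (NK) cells, chosen by symbol. All 32 were found among the 20943 gene symbols of the deposited table, and all 32 were among the 20807 genes that varied and were tested.

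The 3 PRC2 loss tumors carried floxed Nf1(f/f), Cdkn2a(f/f) and Eed(f/f) alleles with Plp-CreERT and were Nf1(-/-), Cdkn2a(-/-) and Eed(-/-) after recombination; Eed encodes a core PRC2 subunit. The 5 PRC2 wildtype tumors carried Plp-CreERT with Nf1(f/f) and Cdkn2a(f/f) and were Nf1(-/-) and Cdkn2a(-/-), so both groups lacked the Ras regulator Nf1 and the tumor suppressor Cdkn2a. Tamoxifen (0.4 mg) was given to all mice on days 0 to 3 of life; age at collection was not given. Plp-CreERT acts in the Schwann cell lineage, which does not include T and NK cells. PRC2 loss tumor 2 grew in the left and tumor 3 in the right sciatic nerve, both under the animal number 7, and tumor 1 in a right paraspinal nerve under number 5. Wildtype tumors 1 and 2 carried the animal number 8, tumors 3 and 4 number 9 and tumor 5 number 11, with no site given. Where a number is shared, p-values that treat tumors as independent are too small. The values are quantile-normalized log2 gene counts, and the sequencing depth behind them is unknown.

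T cells recognise peptide on MHC molecules through the T cell receptor, which signals through the CD3 chains and Cd247 and is helped by the coreceptors CD4 on helper and CD8 on cytotoxic cells. NK cells carry activating receptors such as NKp46, encoded by Ncr1, and kill as cytotoxic T cells do, with perforin and granzymes. T cells that stay in a tumor often carry inhibitory (checkpoint) receptors, and regulatory T cells, which depend on the factor Foxp3, restrain the others. In bulk tumor RNA, fewer cells of a type and less RNA per cell cannot be told apart.

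The 4 promoter windows that follow belong to cytotoxic genes whose RNA was lower in PRC2 loss, and each held a RUNX core. The window of Gzma, a cytotoxic gene not called lower in the test below, held a RUNX core too and is not shown. Each is the RefSeq window of build GRCm38.p6 from 250 bases before to 50 bases after the gene start. Capitals mark matches to the RUNX core TGTGGT and the T-box core GGTGTGA on either strand; RUNX3 and the T-box factors T-bet and Eomes are known regulators of cytotoxic lymphocytes.
Nkg7 (chr7:43436888-43437187, plus strand): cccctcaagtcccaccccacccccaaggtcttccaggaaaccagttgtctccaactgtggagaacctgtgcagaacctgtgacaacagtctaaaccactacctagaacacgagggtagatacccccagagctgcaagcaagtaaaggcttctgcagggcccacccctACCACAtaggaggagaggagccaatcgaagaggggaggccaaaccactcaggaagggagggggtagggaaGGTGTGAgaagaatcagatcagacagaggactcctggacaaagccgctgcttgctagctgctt
Ncr1 (chr7:4337465-4337764, plus strand): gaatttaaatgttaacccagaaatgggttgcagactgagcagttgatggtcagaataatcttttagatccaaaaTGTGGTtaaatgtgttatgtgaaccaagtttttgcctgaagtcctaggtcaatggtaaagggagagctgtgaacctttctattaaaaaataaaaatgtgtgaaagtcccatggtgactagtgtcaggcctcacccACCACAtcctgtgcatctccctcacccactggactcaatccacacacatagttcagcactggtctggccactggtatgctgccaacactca
Prf1 (chr10:61297586-61297885, plus strand): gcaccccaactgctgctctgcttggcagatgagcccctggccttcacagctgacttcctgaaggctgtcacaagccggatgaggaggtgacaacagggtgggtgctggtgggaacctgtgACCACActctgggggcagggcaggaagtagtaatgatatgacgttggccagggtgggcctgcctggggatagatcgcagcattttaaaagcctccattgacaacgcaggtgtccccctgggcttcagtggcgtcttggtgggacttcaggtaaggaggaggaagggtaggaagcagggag
Gzmb (chr14:56262285-56262584, minus strand): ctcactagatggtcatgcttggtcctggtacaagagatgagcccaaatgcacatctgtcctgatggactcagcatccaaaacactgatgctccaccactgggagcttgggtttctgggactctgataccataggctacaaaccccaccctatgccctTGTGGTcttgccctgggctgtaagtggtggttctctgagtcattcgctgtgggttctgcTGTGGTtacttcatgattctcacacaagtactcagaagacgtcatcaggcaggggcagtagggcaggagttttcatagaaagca
Windows were held for 24 of the 32 genes, 29 windows in all. The RUNX core occurred in 11 of them (37.9%), against 16.8% of 32851 windows of all genes. Besides the genes named above, it was found for Cd96, Havcr2 and Tigit, which were called lower, and for Lck and Zap70, which were not. Whether the core goes with the fall was not tested. Both Ncr1 windows are among the 11, and they overlap and hold the same matches. The T-box core occurred in 1 window (3.45%), that of Nkg7, against 3.98% of all windows. The NFAT core GGAAAA, searched in the same way, occurred in 6 windows (20.7%), against 23.4%. These letter matches describe the windows and do not show binding.

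T and NK cell genes fell in PRC2 loss tumors in each of the 8 role groups. In a limma linear model with p-values adjusted over all genes tested, 26 of the 32 genes (81.2%) fell at an adjusted p below 0.05, against 19.6% of all genes tested (35.7% in either direction). Limma called 0 of the 32 higher, against 16% of all genes; at an unadjusted p below 0.05, 0 were higher and 30 lower. The median log2 difference, PRC2 loss minus wildtype, was -2.35 for the 32 genes and -0.12 for all genes tested. Every PRC2 loss tumor lay below every wildtype tumor for 29 of the 32 genes, against 21.4% of all genes (38.3% apart in either direction). The exceptions were Cd4, Lag3 and Gzma. The genes that did not pass were Cd3g, Lck, Zap70, Lag3, Gzma and Ifng.

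**Figure D1:**
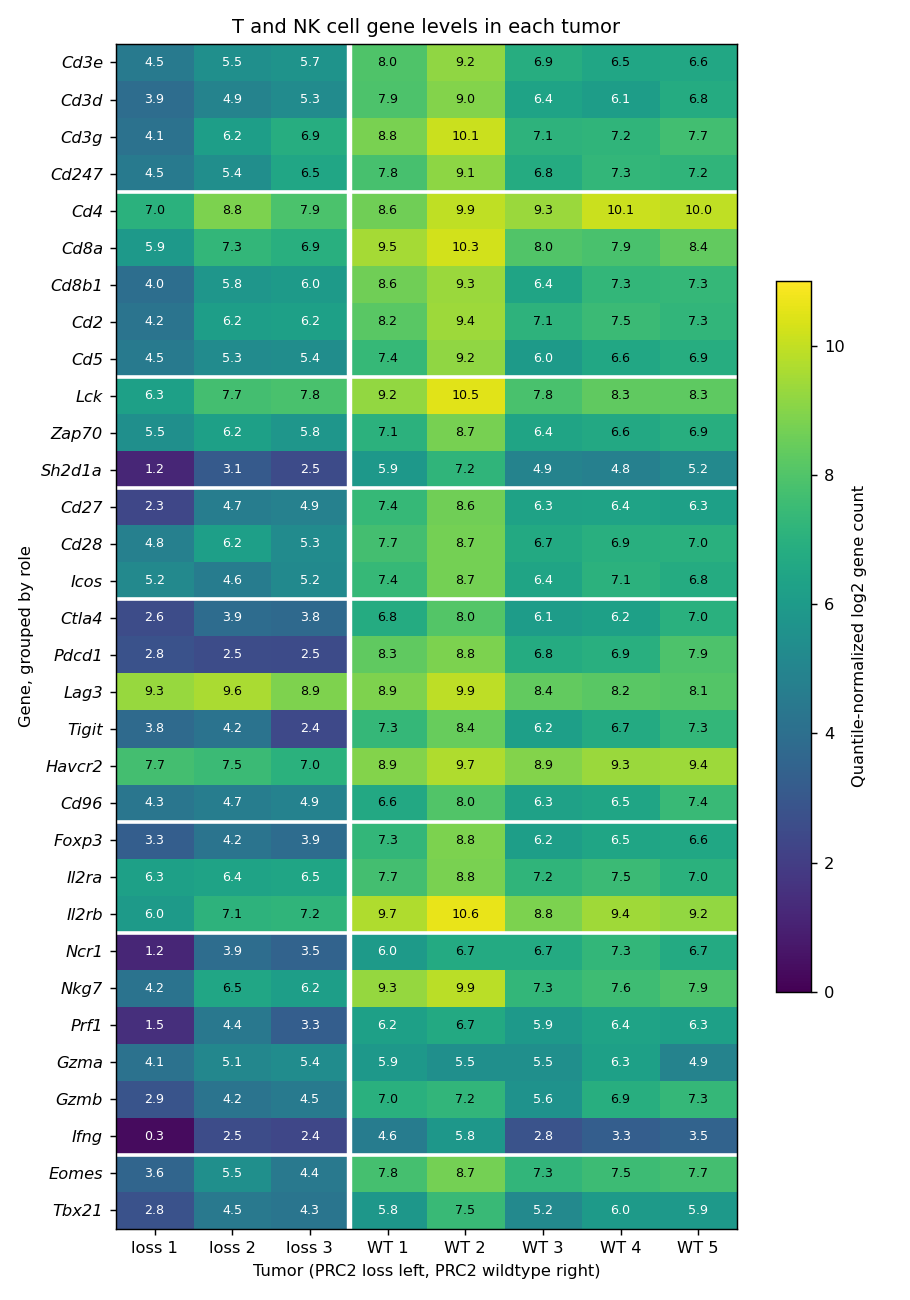
Quantile-normalized log2 gene counts of the 32 T and NK cell genes (rows, grouped by role) in the 3 PRC2 loss tumors (left) and the 5 wildtype tumors (WT, right). PRC2 loss tumor 1 was the lowest of all 8 tumors for 27 genes, wildtype tumor 2 was the highest for 28, and Lag3 was the gene whose PRC2 loss mean exceeded its wildtype mean.

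Tumors of 1 group also differed from each other. Wildtype tumor 2 had the highest value of all 8 tumors for 28 genes, and wildtype tumors 1 and 2, which share an animal number, both lay above wildtype tumors 3 to 5 for 23. Over the 32 genes the median range among wildtype tumors was 2.27 on the log2 scale, close in size to the median group difference. PRC2 loss tumor 1 was the lowest of all 8 for 27 genes.

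The number of genes called depended on which tumors entered and on scaling. Without PRC2 loss tumor 1, 2 or 3 the limma count of lower genes was 13, 17 or 16, and the share of all genes called lower was 14.7, 14.2 or 14.4%. Without wildtype tumor 1 it was 16, with 17.2% of all genes. Using the mean of each animal number left 13 (10.2% of all genes), with a median difference of -2.55 for the 32 genes. Centring on housekeeping genes left 15 (7.55% of all genes) and a median of -1.75. Of the 15 housekeeping genes used, 9 were themselves called lower and 0 higher, with a median difference of -0.76. Leaving out wildtype tumors 1 and 2 left 18 (21% of all genes) and a median of -1.78. Centring each tumor on 8 pan-leukocyte markers, an alternative added after the data were seen, left 8, with 1.8% of all genes and a median of -1.17 for the 32. They were Pdcd1, Tigit, Ctla4, Foxp3, Il2rb, Ncr1, Eomes and Sh2d1a. Those 8 also passed in each of the 8 fits without 1 tumor and in the other settings named here. Of the 8, only Pdcd1, Tigit and Eomes also passed with the replicate number as a block. Havcr2, Cd96, Prf1 and Gzmb passed in all 8 fits without 1 tumor as well, and the other 14 genes called with all tumors lost the call in at least 1 of those fits.

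**Figure D2:**
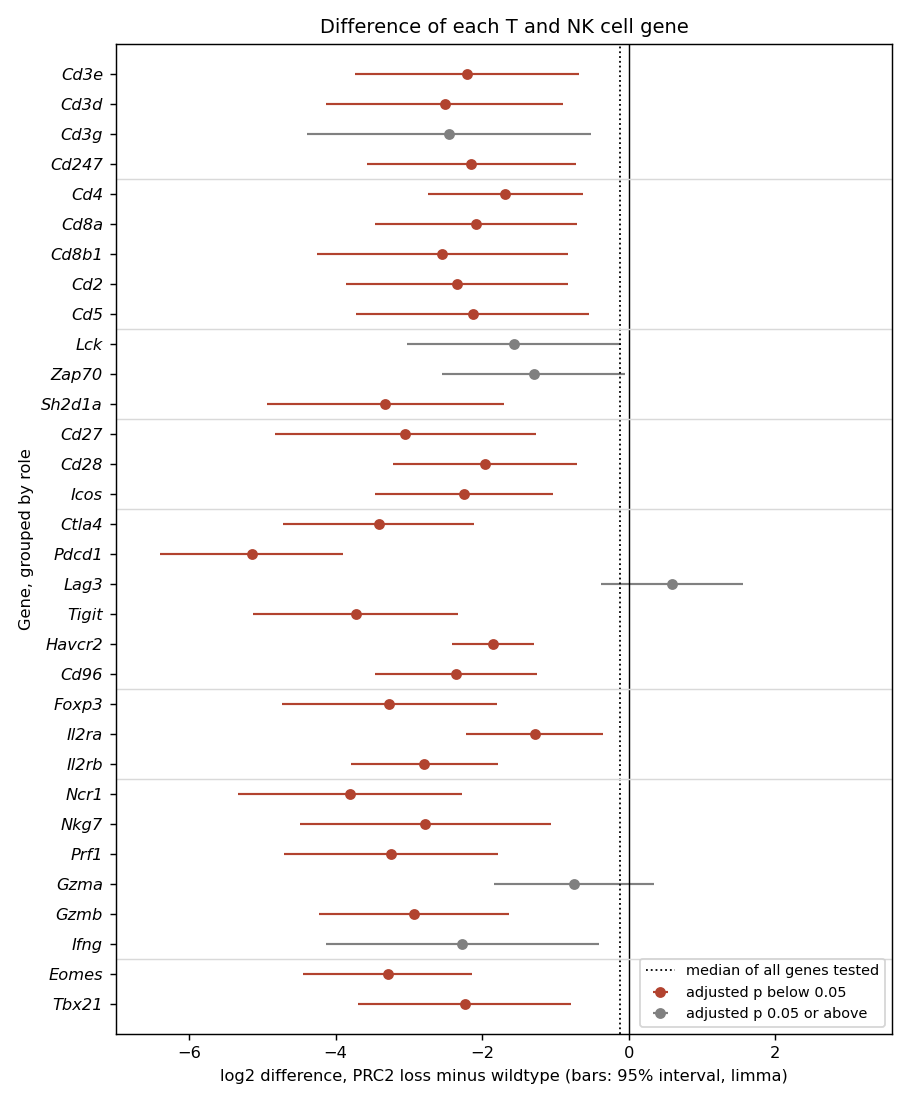
Log2 difference, PRC2 loss minus wildtype, of each of the 32 genes (rows, grouped by role) with its 95% interval from limma. Filled red points passed the adjusted threshold of 0.05 and grey points did not; the dotted line marks the median of all genes tested, -0.12, and Pdcd1 lies farthest to the left at -5.14.

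The chains of the T cell receptor complex that signal were lower in PRC2 loss tumors, with 3 of 4 passing the test. Cd3d had 3.94, 4.91 and 5.33 in PRC2 loss tumors 1 to 3, against 7.93, 8.97, 6.40, 6.11 and 6.79 in wildtype tumors 1 to 5. It fell by 2.51 on the log2 scale (SE 0.708, limma adjusted p = 0.0251), with no overlap between the groups. Cd247, the zeta chain, had 4.54, 5.42 and 6.51 in PRC2 loss, against 7.80, 9.13, 6.77, 7.27 and 7.21 in wildtype. PRC2 loss tumor 3 was 0.27 below the lowest wildtype tumor, and Cd247 fell by 2.15 (SE 0.626, limma adjusted p = 0.0284). Cd3e averaged 5.21 ± 0.62 in PRC2 loss and 7.42 ± 1.14 in wildtype (SD, n = 3 and 5), which was 4.62-fold lower (limma adjusted p = 0.0325). Cd3g had 4.13, 6.18 and 6.86 in PRC2 loss, against 8.79, 10.13, 7.10, 7.19 and 7.66 in wildtype. The groups were apart but spread widely, and its difference of -2.45 (SE 0.848) missed the threshold (limma adjusted p = 0.0526). In mm10 the genes Cd3g, Cd3d and Cd3e lie next to each other on chromosome 9, at 44969572 to 44980431, 44981786 to 44987339 and 44998740 to 45009627. Of the exon bases of Cd247, 3007 (56.4%) are shared with the opposite-strand gene Pou2f1, which rose by 0.68 (limma adjusted p = 0.0337), and strand use in counting was not given, so the Cd247 values are uncertain.

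Coreceptors and adhesion receptors fell in PRC2 loss, all 5 of 5. Cd2, an adhesion receptor of T and NK cells, had 4.24, 6.16 and 6.24 in PRC2 loss, against 8.18, 9.40, 7.11, 7.51 and 7.25 in wildtype. It was 5.08-fold lower (log2 difference -2.34, SE 0.662, limma adjusted p = 0.0253). Cd4, the helper T cell coreceptor, had 7.03, 8.81 and 7.90 in PRC2 loss, against 8.61, 9.93, 9.34, 10.13 and 9.96 in wildtype. The groups overlapped, since PRC2 loss tumor 2 exceeded wildtype tumor 1, and Cd4 fell by 1.68 (SE 0.463, limma adjusted p = 0.0229). Its order among wildtype tumors differed from that of Cd3e: Cd4 was highest in tumor 4 and lowest in tumor 1, whereas Cd3e was highest in tumor 2 and lowest in tumor 4. The CD8 chains Cd8a and Cd8b1 averaged 6.72 ± 0.69 and 5.25 ± 1.10 in PRC2 loss (SD, n = 3), against 8.80 ± 1.04 and 7.79 ± 1.17 in wildtype (SD, n = 5). They were 4.24-fold and 5.82-fold lower (limma adjusted p = 0.0278 and 0.0293). Cd5, a receptor that dampens T cell receptor signals, was 4.37-fold lower (limma adjusted p = 0.043).

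Of the 3 intracellular signaling genes, only Sh2d1a passed the test, although all 3 were lower in every PRC2 loss tumor. Sh2d1a, which encodes the adaptor SAP of T and NK cells, had 1.17, 3.11 and 2.53 in PRC2 loss, against 5.85, 7.21, 4.92, 4.80 and 5.18 in wildtype. It was 9.99-fold lower (log2 difference -3.32, SE 0.706, limma adjusted p = 0.00793). Exons of the opposite-strand gene Tenm1 cover 1465 of its bases (26.6%), and Tenm1 averaged 4.06 ± 1.60 in PRC2 loss and 4.30 ± 1.49 in wildtype (SD, n = 3 and 5; limma adjusted p = 0.863). Lck, the kinase that starts T cell receptor signaling, had 6.27, 7.71 and 7.83 in PRC2 loss, against 9.22, 10.52, 7.84, 8.29 and 8.28 in wildtype. PRC2 loss tumors 2 and 3 lay just below wildtype tumor 3, and the difference of -1.56 (SE 0.64) missed the threshold (limma adjusted p = 0.0896). Zap70, the kinase recruited next, had 5.50, 6.25 and 5.80 in PRC2 loss, against 7.07, 8.73, 6.42, 6.62 and 6.89 in wildtype. Wildtype tumor 2 stood far above the others, and the difference was -1.30 (SE 0.545, limma adjusted p = 0.0971).

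All 3 costimulatory receptor genes fell. Cd27, a receptor of the TNF receptor family, had 2.34, 4.65 and 4.85 in PRC2 loss, against 7.35, 8.62, 6.34, 6.38 and 6.27 in wildtype. PRC2 loss tumor 1 was well below the other two, and Cd27 was 8.26-fold lower (log2 difference -3.05, SE 0.776, limma adjusted p = 0.0169). Icos, the inducible costimulator, had 5.19, 4.63 and 5.22 in PRC2 loss, against 7.35, 8.71, 6.43, 7.06 and 6.77 in wildtype. It was 4.76-fold lower, with a gap between the groups (log2 difference -2.25, SE 0.53, limma adjusted p = 0.0122). Cd28, the main costimulatory receptor of naive T cells, was 3.90-fold lower (limma adjusted p = 0.0242). Cd28, Ctla4 and Icos are neighbours on chromosome 1 in mm10, at 60716800 to 60773359, 60887000 to 60915832 and 60977927 to 61000320.

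Inhibitory receptors included the largest fall of the 32 genes and the gene whose mean was higher in PRC2 loss; 5 of 6 fell. Pdcd1, which encodes the checkpoint receptor PD-1, had 2.76, 2.54 and 2.53 in PRC2 loss, against 8.31, 8.83, 6.77, 6.94 and 7.92 in wildtype. The 3 PRC2 loss tumors were almost equal, and the highest of them was 4.01 below the lowest wildtype tumor on the log2 scale. Pdcd1 was 35.4-fold lower (log2 difference -5.14, SE 0.545, limma adjusted p = 0.000475). Its PRC2 loss values were low, and with a pseudocount of 16 the log2 difference was -3.40 (limma adjusted p = 0.00181). Havcr2, which encodes the receptor TIM-3 found on T cells and on macrophages and dendritic cells, had 7.69, 7.51 and 7.04 in PRC2 loss, against 8.95, 9.70, 8.95, 9.35 and 9.37 in wildtype. Values were tight within each group, and it fell by 1.85 (SE 0.245, limma adjusted p = 0.00111). Tigit, a receptor for nectin family ligands, averaged 3.47 ± 0.91 in PRC2 loss and 7.20 ± 0.83 in wildtype (SD, n = 3 and 5), 13.2-fold lower (limma adjusted p = 0.00263). Ctla4, which competes with CD28 for its ligands, was 10.6-fold lower (limma adjusted p = 0.00289), and Cd96, a nectin family receptor of T and NK cells, 5.12-fold (limma adjusted p = 0.00685).

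Lag3, which encodes a receptor that binds MHC class II, did not follow the rest. It had 9.32, 9.59 and 8.89 in PRC2 loss, against 8.86, 9.92, 8.37, 8.17 and 8.06 in wildtype. All PRC2 loss tumors were above wildtype tumors 1, 3, 4 and 5, and wildtype tumor 2 was above every other tumor. The difference of 0.59 (SE 0.422) was not called when all 8 tumors entered (limma adjusted p = 0.315). Without wildtype tumor 2 it was 0.90 and passed (limma adjusted p = 0.0318), and without wildtype tumors 1 and 2 it was 1.06 (limma adjusted p = 0.016). Relative to the pan-leukocyte markers it was 1.76 (limma adjusted p = 0.0241). That centring raised the difference of every gene alike, with a median of 1.05 for all genes, and 5150 of 20807 genes passed as higher. No exon of another annotated gene overlaps those of Lag3 in GENCODE release M21.

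**Figure D3:**
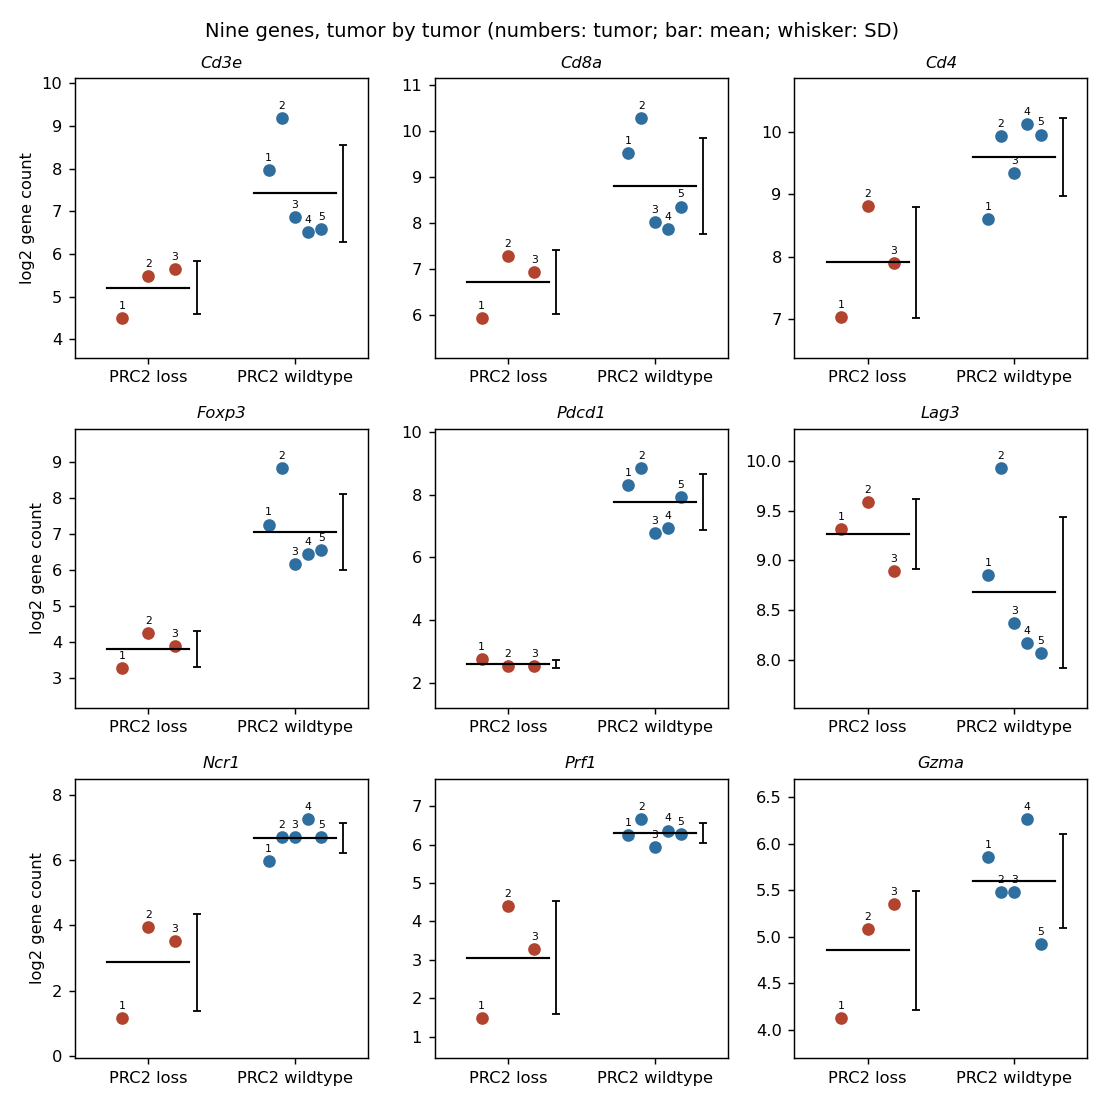
Log2 gene counts of 9 genes in each tumor, PRC2 loss at left and wildtype at right, with the group mean as a bar and the SD as a whisker; each panel has its own axis. Pdcd1 lies between 2.53 and 2.76 in PRC2 loss and at 6.77 or above in wildtype, whereas the groups overlap for Cd4, Lag3 and Gzma.

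Genes of regulatory T cells and of the receptor for interleukin 2 fell, 3 of 3. Foxp3, the factor that defines regulatory T cells, had 3.27, 4.24 and 3.88 in PRC2 loss, against 7.27, 8.83, 6.18, 6.46 and 6.56 in wildtype. The highest PRC2 loss tumor was 1.94 below the lowest wildtype tumor, and Foxp3 was 9.61-fold lower (log2 difference -3.26, SE 0.644, limma adjusted p = 0.00591). Its exons share 590 bases with the opposite-strand gene Ccdc22, 266 with the opposite-strand gene Ppp1r3f and 853 with the same-strand transcript Flicr. None of these passed the test (limma adjusted p = 0.379, 0.168 and 0.626). The opposite-strand transcript Gm36995, which is not among the gene symbols measured, shares 373 bases. Il2rb, the beta chain of the interleukin 2 and interleukin 15 receptors of T and NK cells, had 5.99, 7.11 and 7.19 in PRC2 loss, against 9.68, 10.61, 8.81, 9.43 and 9.22 in wildtype. It was 6.91-fold lower (log2 difference -2.79, SE 0.439, limma adjusted p = 0.0022). Il2ra, the alpha chain of regulatory and activated T cells, showed a smaller fall, averaging 6.36 ± 0.09 in PRC2 loss and 7.65 ± 0.69 in wildtype (SD, n = 3 and 5; limma adjusted p = 0.0397).

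Of the NK receptor and cytotoxic effector genes, 4 of 6 fell. Ncr1, the NK cell receptor gene, had 1.17, 3.94 and 3.51 in PRC2 loss, against 5.98, 6.71, 6.71, 7.27 and 6.70 in wildtype. It was 13.9-fold lower (log2 difference -3.80, SE 0.669, limma adjusted p = 0.00364), and unlike the CD3 genes it was not highest in wildtype tumors 1 and 2. Gzmb, the gene of granzyme B, had 2.87, 4.24 and 4.54 in PRC2 loss, against 6.98, 7.24, 5.63, 6.88 and 7.34 in wildtype. It was 7.61-fold lower (log2 difference -2.93, SE 0.566, limma adjusted p = 0.00542), with wildtype tumor 3 nearest to the PRC2 loss tumors. The perforin gene Prf1 averaged 3.06 ± 1.47 in PRC2 loss and 6.30 ± 0.26 in wildtype (SD, n = 3 and 5), 9.47-fold lower (limma adjusted p = 0.00587). Nkg7, a granule membrane protein of cytotoxic cells, was 6.84-fold lower (limma adjusted p = 0.0213).

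Gzma and Ifng did not pass. Gzma, the gene of granzyme A, had 4.13, 5.08 and 5.35 in PRC2 loss, against 5.86, 5.48, 5.48, 6.27 and 4.92 in wildtype. Wildtype tumor 5 was below PRC2 loss tumors 2 and 3, and the difference was -0.75 (SE 0.478, limma adjusted p = 0.259). Ifng, the interferon gamma gene, was low throughout, with 0.33, 2.54 and 2.36 in PRC2 loss, against 4.64, 5.83, 2.80, 3.28 and 3.51 in wildtype. PRC2 loss tumor 2 was 0.26 below wildtype tumor 3, and the difference of -2.27 (SE 0.816) missed the threshold (limma adjusted p = 0.06). Of the exon bases of Ifng, 336 (25.95%) are shared with the same-strand transcript Gm49751, which is not among the gene symbols measured.

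Both T-box factor genes, which direct the effector programs of T and NK cells, fell. Eomes had 3.59, 5.48 and 4.43 in PRC2 loss, against 7.76, 8.68, 7.26, 7.54 and 7.72 in wildtype. It was 9.79-fold lower, with no overlap (log2 difference -3.29, SE 0.503, limma adjusted p = 0.002). Tbx21, the gene of T-bet, had 2.76, 4.45 and 4.29 in PRC2 loss, against 5.83, 7.46, 5.19, 5.98 and 5.90 in wildtype. It was 4.72-fold lower (log2 difference -2.24, SE 0.634, limma adjusted p = 0.0256).

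Ratios of transcripts within a tumor were compared for 6 pairs, by exact permutation (two-sided, 56 ways to split the tumors), with p-values adjusted over the 6 pairs. Such a ratio depends on transcript length, so only its difference between groups is read. Foxp3 relative to Cd3e had log2 ratios of -1.24, -1.24 and -1.78 in PRC2 loss, against -0.70, -0.34, -0.68, -0.06 and -0.02 in wildtype. Pdcd1 relative to Cd3e had -1.75, -2.94 and -3.12 in PRC2 loss, against 0.35, -0.34, -0.09, 0.41 and 1.34 in wildtype. The groups did not overlap for either pair, with differences of -1.06 and -2.94; each had p = 0.0179, the smallest this exact test allows, and an adjusted p = 0.0536.

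No pair passed the adjusted threshold of 0.05. Cd3e relative to Ptprc, the pan-leukocyte gene of CD45, averaged -5.84 ± 0.15 in PRC2 loss and -5.02 ± 0.51 in wildtype (SD, n = 3 and 5; exact permutation p = 0.0893, adjusted p = 0.179). Wildtype tumor 4 lay among the PRC2 loss tumors for that ratio. Cd8a relative to Cd4 averaged -1.19 ± 0.30 in PRC2 loss and -0.79 ± 1.35 in wildtype (SD, n = 3 and 5; exact permutation p = 0.643, adjusted p = 0.643). In wildtype that ratio was 0.90 and 0.34 in tumors 1 and 2 and between -2.27 and -1.33 in tumors 3 to 5, and without tumors 1 and 2 the difference turned to 0.54. Ncr1 and Prf1 relative to Cd3e differed by -1.59 and -1.04 (exact permutation p = 0.143 and 0.196, adjusted p = 0.214 and 0.236).

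**Figure D4:**
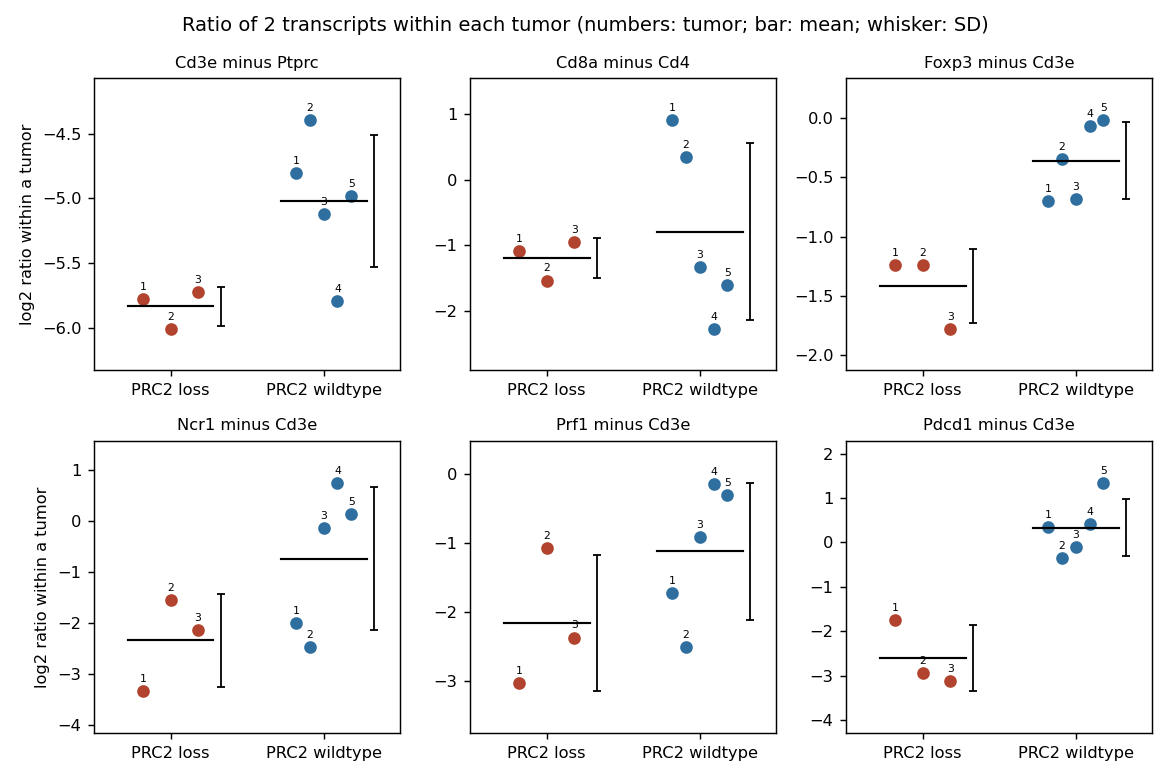
Log2 ratio of 2 transcripts within each tumor for 6 pairs, PRC2 loss at left and wildtype at right, with the group mean as a bar and the SD as a whisker; each panel has its own axis. The groups are apart for Foxp3 and Pdcd1 relative to Cd3e and overlap for the other 4 pairs.

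Markers of other leukocytes also fell in part, where 19.6% of all genes tested fell and 16% rose. Among 8 pan-leukocyte markers 4 fell and none passed upward, and the log2 of their summed linear values was 13.03 to 14.08 in PRC2 loss and 14.27 to 15.90 in wildtype. The median difference of that list was -1.27; Cd53 and Itgb2 were 2.75-fold and 2.38-fold lower (limma adjusted p = 0.0113 and 0.0354), and Coro1a was the highest gene that did not pass (limma adjusted p = 0.13). Among 12 macrophage markers 8 fell and 1, Cd163, rose, with summed levels of 15.65 to 15.99 in PRC2 loss and 16.30 to 17.51 in wildtype. Adgre1, a surface gene used to mark macrophages, and Itgam, a myeloid integrin gene, were 3.75-fold and 3.32-fold lower (limma adjusted p = 0.00145 and 0.000701), and Csf1r did not pass (limma adjusted p = 0.138). Among 8 B cell markers 2, Cd22 and Fcrla, fell, a share near that of all genes. Cd79b was the highest B cell marker that did not pass (limma adjusted p = 0.0771). Summed levels of the B cell list were 7.24 to 8.99 in PRC2 loss and 9.35 to 11.73 in wildtype. Pax5 was listed at 0 in PRC2 loss tumor 1.

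Markers of Schwann and endothelial cells were higher in PRC2 loss, where 16% of all genes tested rose. All 8 markers of myelinating Schwann cells rose, with summed levels of 17.26 to 18.19 in PRC2 loss and 12.32 to 13.46 in wildtype, and Prx and Drp2, which belong to the myelin sheath, were 39.6-fold and 56.9-fold higher (limma adjusted p = 3.5e-05 and 4.6e-05). Of 8 endothelial markers 7 rose, with summed levels of 15.18 to 15.94 in PRC2 loss and 13.18 to 13.96 in wildtype; Emcn and Cdh5 were 5.33-fold and 4.32-fold higher, and Kdr did not pass (limma adjusted p = 0.135). None of 8 skeletal muscle markers passed in limma (0 at an unadjusted p below 0.05 either), the highest being Pygm. Wildtype tumors 1 and 2, the tumors with the most T cell RNA, had a mean of 12.70 and 12.15 for that list, against 4.18 to 5.80 in wildtype tumors 3 to 5; its summed level was 10.94 to 13.08 in PRC2 loss and 8.14 to 16.18 in wildtype. Wildtype tumor 2 also had the highest B cell list mean, 8.52, against 5.13 to 5.96 in the other wildtype tumors. The part of these markers in the T and NK cell result was not tested, beyond the fits without wildtype tumors 1 and 2 and relative to pan-leukocyte markers given above.

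**Figure D5:**
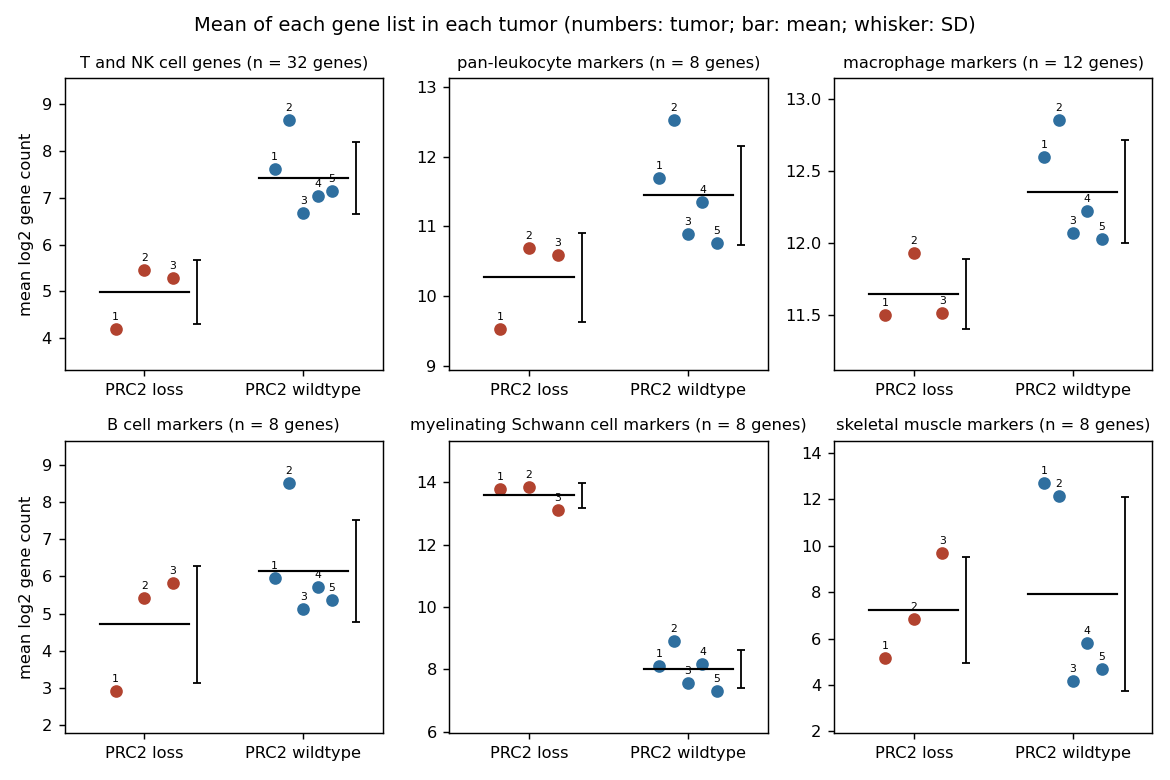
Mean log2 gene count of the 32 T and NK cell genes and of 5 lists of markers of other cells in each tumor, PRC2 loss at left and wildtype at right, with the group mean as a bar and the SD as a whisker; each panel has its own axis. The means of the leukocyte and macrophage lists are lower in PRC2 loss and the myelinating Schwann cell mean is higher, and wildtype tumors 1 and 2 stand apart for skeletal muscle.

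Further T and NK cell genes outside the 32 showed the same direction in part, where 19.6% of all genes tested fell. Of 28 other T cell genes 25 were analysed here; 11 fell, 1 rose and 13 did not pass, with a median log2 difference of -1.45. Cd7, a T and NK cell surface protein, and Lcp2, the adaptor SLP-76, were 8.60-fold and 2.73-fold lower (limma adjusted p = 0.00336 and 0.00449). The gene that rose was Lef1, a Wnt pathway factor also expressed outside T cells, at 8.98 ± 0.75 in PRC2 loss and 6.10 ± 1.10 in wildtype (SD, n = 3 and 5; limma adjusted p = 0.0105). Thy1, which nerve and stromal cells also express, had 11.85 ± 0.90 in PRC2 loss and 12.28 ± 1.45 in wildtype (SD, n = 3 and 5; limma adjusted p = 0.698). Of 17 other NK and cytotoxic genes 10 fell and 7 did not pass (median -2.18). Xcl1, a chemokine of NK and CD8 T cells, and Klre1, an NK receptor of a family of close copies that may share reads, were 39.4-fold and 20.8-fold lower (limma adjusted p = 0.00123 and 0.00145). Fcgr3, an Fc receptor of NK cells and macrophages, had 11.35 ± 0.13 in PRC2 loss and 11.96 ± 0.47 in wildtype (SD, n = 3 and 5; limma adjusted p = 0.0968).

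Most ligand, cytokine and chemokine genes did not pass. Of 13 ligand genes 4 fell and 9 did not pass (median -0.94), against 19.6% of all genes that fell. Pdcd1lg2, which encodes the PD-1 ligand PD-L2, was 11.6-fold lower (limma adjusted p = 0.00126), and Nectin3, a ligand of the nectin receptors, 1.92-fold (limma adjusted p = 0.00223). Cd274, the PD-L1 gene, named after its values were seen, had 7.30, 8.41 and 9.46 in PRC2 loss, against 9.60, 10.27, 8.78, 9.43 and 8.44 in wildtype (limma adjusted p = 0.225). Lgals9, a TIM-3 ligand, had 11.82 ± 0.32 in PRC2 loss and 11.63 ± 0.90 in wildtype (SD, n = 3 and 5; limma adjusted p = 0.769). Of 16 cytokine and chemokine genes 4 fell and 12 did not pass (median -1.30), a share near the 19.6% of all genes that fell. The 2 with the smallest p were Il12b and Il27, inducers of interferon gamma responses, at 78.6-fold and 8.87-fold lower (limma adjusted p = 0.000215 and 0.00323). Cxcl10, a chemokine that attracts T cells, had 7.84, 8.05 and 7.30 in PRC2 loss, against 11.58, 11.82, 9.73, 10.62 and 7.62 in wildtype. Wildtype tumor 5 lay within the PRC2 loss range, and Cxcl10 missed the threshold (limma adjusted p = 0.0517).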

How the data were processed

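RNA from 8 tumors was prepared as poly-A TruSeq libraries, per the labels' protocols. Trim Galore, STAR 2.6, Partek 7.0 and the build mm10 are named in the submitters' processing notes. For the counting method, strand use and the offset before the log, nothing is given in the sources used here. Values deposited by the authors are quantile-normalized log2 gene counts, which hold no library totals. Groups came from the titles and columns were matched by description. Of 20943 genes, 136 constant ones were left out. Limma 3.58.1 (R 4.3.3) was fitted to the other 20807 with a variance trend, with two-sided p-values adjusted by the Benjamini-Hochberg method, a threshold of 0.05 and no pseudocount. A fold is 2 raised to a log2 difference, and for low genes it depends on the unstated offset. The 32 genes, the other lists and the pairs were chosen with earlier results of these data known. In each role, values per tumor are given for the 2 genes with the smallest p and for those that did not pass. For other lists, the 2 smallest p per direction and the highest gene that did not pass are named. Positions are from GENCODE M21 (mm10) and promoters from RefSeq (GRCm38.p6). The titles call the tumors biological replicates and do not say that they came from separate mice. Alternatives were a filter on low values, pseudocounts of 1 and 16, no trend, array weights, other centring, animal numbers averaged or as a block, a replicate block and leaving out tumors.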

Additional observations from a re-analysis of the deposited data

Results flagged for a closer look

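Gaps were examined in 38 sets of 5 wildtype values, the 32 genes and the 6 ratios, where chance alone marks about 1 set in 20. In 2 sets, 1 tumor lay far from the rest. Zap70 was 8.73 in wildtype tumor 2, against 6.42 to 7.07 in the other wildtype tumors. Gzmb was 5.63 in wildtype tumor 3, against 6.88 to 7.34 in the others.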

How the results depend on the processing

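The count of 26 lower genes was 3 without genes whose mean was below the median, where only 4 of the 32 genes remained among the 10404 tested. Of those 10404 genes, 24.3% were called lower. It was 15 with housekeeping centring, 13 with animal numbers averaged, 8 with pan-leukocyte centring, and between 13 and 26 when each tumor was left out in turn. A pseudocount of 16 left 23 lower genes, with 18.5% of all genes called lower, and a median difference of -1.84 for the 32. Under every setting tried, 31 of 32 differences stayed negative, except with pan-leukocyte centring (30) and the filter on low values (3 of 4). A gene passed as higher, Lag3, in 1 fit without a tumor (0 to 1 over those fits), without wildtype tumors 1 and 2 (1) and with pan-leukocyte centring (1). Gzma turned to 0.43 with pan-leukocyte centring. The difference of Cd8a relative to Cd4 ranged from -0.77 to 0.021 without each tumor and was 0.54 without wildtype tumors 1 and 2. All genes called numbered 7424 and became 4248 with low genes left out and 4226 with animal numbers averaged. Calls split into 3337 higher and 4087 lower, 7533 and 1571 with housekeeping centring, and 5150 and 375 with pan-leukocyte centring; these moved the median difference of all genes from -0.12 to 0.48 and 1.05. The causes were not tested.

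With the replicate number as a block, 5 genes of the 32 were called lower, with 3.72% of all genes. They were Cd4, Pdcd1, Tigit, Havcr2 and Eomes. In either direction 1903 of all genes were called in that fit. Same-numbered tumors correlated at -0.16, 0.09 and -0.05 in their deviations from the group means, and only PRC2 loss tumor 2 matched its own number best. With so few tumors per group this check cannot decide whether the numbers pair the tumors, and the labels do not say that they do. Sequencing depth is unknown and sets no counting interval here.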

Other observations

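Of the other T cell and NK lists counted above, 5 further genes that fell are given here, named after their values were seen; other genes of those lists did not pass. Gzmc, a granzyme gene of a family of close copies that may share reads, was 48.6-fold lower, at 1.86 ± 0.68 in PRC2 loss and 7.46 ± 1.46 in wildtype (SD, n = 3 and 5; limma adjusted p = 0.00186). It was highest in wildtype tumor 5, at 9.51, not in tumor 2. Gzmk, a granzyme gene of memory CD8 T cells, was 5.63-fold lower (limma adjusted p = 0.0206), and Klrk1, which encodes the activating receptor NKG2D, 6.27-fold (limma adjusted p = 0.0135). The chemokine receptor gene Cxcr6 was 4.64-fold lower (limma adjusted p = 0.0219). Ikzf3, a lymphoid transcription factor, was 4.87-fold lower (limma adjusted p = 0.0264).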
